A study of Arabidopsis thaliana with 2 samples.

Results

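Cysteine-rich receptor-like kinases (CRKs) were followed in RNA-seq of wild-type and ago1-36 Arabidopsis thaliana seedlings. The ago1-36 line is mutated in AGO1, an ARGONAUTE that binds microRNAs and acts with them on complementary transcripts. The set was a list of 34 locus identifiers of the CRK family, chosen with earlier results of these data in view. Of these, 23 were among the 11666 genes listed in the deposited table, and the other 11 were not analysed here. Seedlings of both genotypes were collected at 12 days after growth on sucrose-containing MS medium in long days, and each genotype was represented by 1 library. The labels state no further allele or treatment. No replicate error can be given for any difference, and higher or lower describes the 2 libraries alone. In whole seedlings, fewer cells of a type and less RNA per cell cannot be told apart.

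CRKs are membrane proteins with an extracellular part that carries a pair of cysteine-rich DUF26 domains, a single membrane-spanning segment and a cytoplasmic serine/threonine kinase domain. The family is known for transcripts that accumulate after pathogen attack, salicylic acid and reactive oxygen, and for roles in cell death, oxidative signalling and stomatal and abscisic acid responses. Many members lie in tandem arrays on chromosome 4, where copies have arisen side by side. Transcription factors of the WRKY class, which act in immunity, bind the W-box, whose core is TTGAC.

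The 250 bases upstream of the annotated start are shown for 5 members, in the TAIR10.1 RefSeq assembly and 5′ to 3′ on the strand of the gene. CRK14, CRK11 and CRK10 had the highest log2 ratios of the set with 1 RPKM added to both libraries. CRK19 is a member that was also higher but has no W-box core here, and CRK4 is the member with no reads in ago1-36. The windows are chr4:12156882-12157131 (minus strand), chr4:12143859-12144108 (minus strand), chr4:12137745-12137994 (plus strand), chr4:12170705-12170954 (plus strand) and chr3:16866262-16866511 (minus strand). None of the 5 overlaps an annotated exon of another gene. Capitals mark the W-box core, TTGAC or its reverse complement GTCAA.
CRK14: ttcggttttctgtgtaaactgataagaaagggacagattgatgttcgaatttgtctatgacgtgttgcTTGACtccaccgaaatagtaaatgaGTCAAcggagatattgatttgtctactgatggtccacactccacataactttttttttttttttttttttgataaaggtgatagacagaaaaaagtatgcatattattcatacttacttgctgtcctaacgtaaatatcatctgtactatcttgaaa
CRK11: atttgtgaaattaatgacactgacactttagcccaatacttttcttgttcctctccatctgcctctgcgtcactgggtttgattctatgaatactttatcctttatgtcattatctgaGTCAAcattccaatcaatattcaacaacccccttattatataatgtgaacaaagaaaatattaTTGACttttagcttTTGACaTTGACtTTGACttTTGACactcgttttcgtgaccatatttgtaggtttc
CRK10: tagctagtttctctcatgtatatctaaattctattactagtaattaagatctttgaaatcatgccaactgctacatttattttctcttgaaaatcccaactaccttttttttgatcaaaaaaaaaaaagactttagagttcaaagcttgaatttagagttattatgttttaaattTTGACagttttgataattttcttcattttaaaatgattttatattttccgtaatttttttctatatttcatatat
CRK19: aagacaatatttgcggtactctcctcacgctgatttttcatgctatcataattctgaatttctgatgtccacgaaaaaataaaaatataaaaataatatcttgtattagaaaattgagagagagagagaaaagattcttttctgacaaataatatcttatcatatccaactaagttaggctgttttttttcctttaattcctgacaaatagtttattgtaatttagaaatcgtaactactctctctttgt
CRK4: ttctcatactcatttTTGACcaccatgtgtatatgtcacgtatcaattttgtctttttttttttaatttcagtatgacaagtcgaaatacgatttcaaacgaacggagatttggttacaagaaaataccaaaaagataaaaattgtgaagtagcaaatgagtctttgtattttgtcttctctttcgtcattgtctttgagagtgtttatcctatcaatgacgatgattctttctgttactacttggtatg

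The level of the family was higher in the ago1-36 library. Summed over the 23 listed members, RPKM (reads scaled to gene length in kilobases and to library size) was 70.4 in the wild type and 230.2 in ago1-36, from 2162 and 6945 recovered reads. The median member stood at 1.19 RPKM in the wild type and 4.91 RPKM in ago1-36. Wild-type levels ran from 0 to 13.2 RPKM, with CRK2, CRK29 and CRK3 at the top, and these 3 made up 38.3% of the sum. In ago1-36 the levels ran from 0 to 46.7 RPKM, with CRK10, CRK2 and CRK11 at the top and 47.2% of the sum between them. The order of the members thus differed between the libraries.

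**Figure D1:**
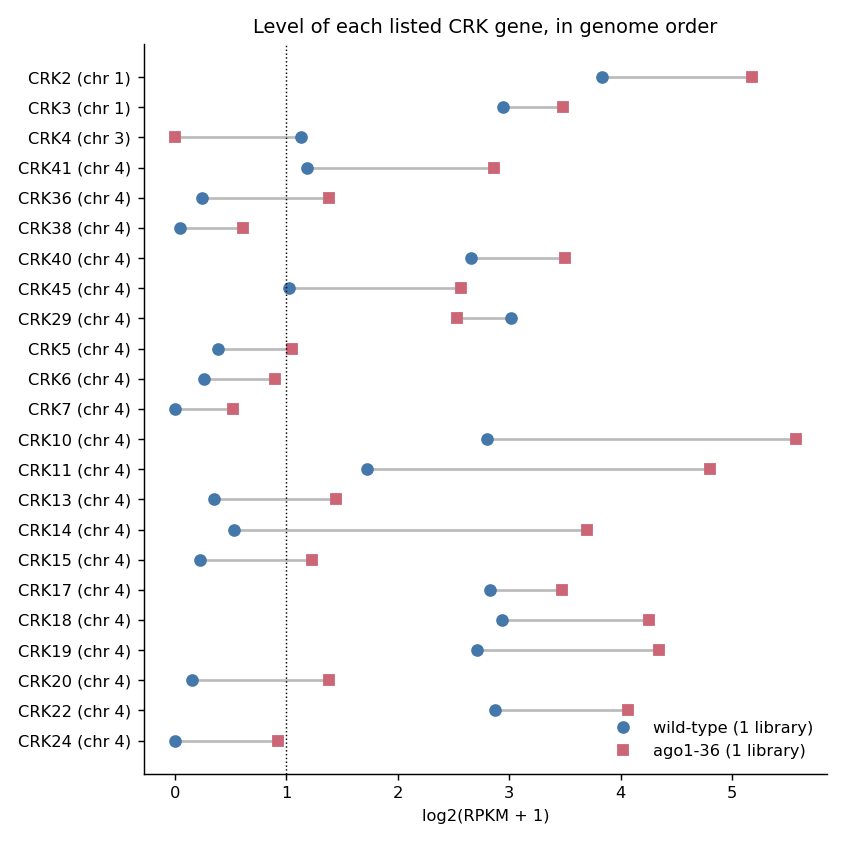
Level of each of the 23 listed CRK genes as log2 of RPKM plus 1, in genome order, with circles for the wild-type library and squares for the ago1-36 library. The dotted line marks 1 RPKM. The square lies to the right of the circle for 21 genes and to the left for CRK4 and CRK29.

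RPKM was higher in ago1-36 for 21 of the 23 listed members and lower for 2, against 48.6% of all listed genes with a higher value in ago1-36. For all 21 the 95% counting interval of the ratio lay above 1, and for 16 it lay above 2. Every listed gene carries a nonzero GFOLD score (the authors' cautious log2 change), so genes without a clear difference may be missing. The intervals are therefore no separate support for a difference. The 19 members that reached 1 RPKM in either library were kept. Of these, 13 were at least 2-fold higher on the scale of log2 of RPKM plus 1, 1 was at least 2-fold lower and 5 lay between. Among all 11373 kept genes, 19.6% were at least 2-fold higher and 8.38% at least 2-fold lower. The median log2 ratio of the 19 was 1.19, with CRK4 taken at 0 RPKM in ago1-36, and that of all kept genes was -0.04. The members were chosen with this contrast known, so these counts describe the set and are no test of it.

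The filter bears on these counts. Of the 19, 6 members passed only through their ago1-36 level, which fixed their direction, and CRK4 passed only through its wild-type level. Restricted to the 13 members at 1 RPKM or more in the wild type, 8 were at least 2-fold higher and 1 lower, with a median log2 ratio of 1.32. The same restriction over all genes left 15.6% higher and 8.94% lower, with a median of -0.11. CRK38, CRK6, CRK7 and CRK24 stayed under 1 RPKM in both libraries.

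CRK14, CRK11 and CRK10 had the highest log2 ratios of the members with 1 RPKM added. By plain ratio, CRK38 (16.1) and CRK20 (14.4), from 1 and 3 wild-type reads, lay above CRK11 and CRK10. CRK36 (8.65) and CRK15 (7.85), from 5 wild-type reads each, lay above CRK10. CRK14 (AT4G23220, chromosome 4, 12154091 to 12156881, 7 exons) had 0.441 RPKM in the wild type and 11.9 RPKM in ago1-36. That is a 27.1-fold higher level (95% counting interval 15.9 to 50.03), from 14 and 377 reads. CRK11 (AT4G23190, chromosome 4, 12140899 to 12143858), known as a pathogen-induced receptor kinase, had 2.30 and 26.8 RPKM. It was 11.7-fold higher (95% counting interval 9.17 to 15.1), from 72 and 836 reads. CRK10 (AT4G23180, chromosome 4, 12137995 to 12140930) had 5.96 RPKM in the wild type and 46.7 RPKM in ago1-36, the highest level of any listed member in either library. It was 7.83-fold higher (95% counting interval 6.69 to 9.20). CRK10 and CRK11 face each other and overlap by 32 bases at their 3′ ends, so a few reads there could count for either.

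CRK4, CRK5, CRK13, CRK19 and CRK20 are known for cell death or raised defence when expressed at high levels in Arabidopsis. CRK19 (AT4G23270) had 5.54 and 19.3 RPKM, a 3.49-fold higher level (95% counting interval 2.93 to 4.2). CRK20 (AT4G23280) had 3 wild-type reads and 43 in ago1-36, or 0.111 and 1.60 RPKM, a ratio of 14.4 (95% counting interval 4.61 to 72.6). CRK13 (AT4G23210) had 9 and 57 reads, or 0.272 and 1.73 RPKM, a ratio of 6.37 (95% counting interval 3.13 to 14.6). CRK5 (AT4G23130) had 9 and 31 reads, or 0.308 and 1.07 RPKM, and its ratio of 3.46 (95% counting interval 1.61 to 8.27) came to a log2 ratio of only 0.66 with 1 RPKM added. These 4 genes all had higher values in ago1-36, and only CRK19 was above 5 RPKM in the wild type.

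CRK4 (AT3G45860, chromosome 3, 16863088 to 16866261) went the other way. It had 33 reads in the wild type, or 1.19 RPKM, and none in ago1-36. With 3 reads taken as the floor, it was 10.9-fold lower, and the 95% counting limit was 8.41-fold lower. Its protein was closest to that of CRK19 among the annotated family, at 72.8% identity over 637 residues, and no 50-base stretch of its transcript is found in another family transcript. The only other member with a lower value was CRK29 (AT4G21410), at 7.08 RPKM in the wild type and 4.77 RPKM in ago1-36. It was 1.48-fold lower (95% counting interval 1.196 to 1.85), under the 2-fold mark. CRK29 overlaps the family member CRK28 by 470 bases on the same strand, and CRK28 was not analysed here.

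Members tied to reactive oxygen were CRK2, CRK6 and CRK7. CRK2 (AT1G70520), known to phosphorylate the NADPH oxidase RBOHD, had the highest wild-type level of the set. It had 13.2 RPKM in the wild type and 35.2 RPKM in ago1-36, a 2.66-fold higher level (95% counting interval 2.37 to 2.99). Its neighbour CRK3 (AT1G70530) on chromosome 1 had 6.67 and 10.2 RPKM, a ratio of 1.52 (95% counting interval 1.26 to 1.85). CRK6 and CRK7, known to protect against damage by extracellular oxidants, were both scarce. CRK6 (AT4G23140) had 6 and 26 reads, and CRK7 (AT4G23150) had 0 and 12 reads. With 3 reads taken as the floor, CRK7 was 4.02-fold higher, and its 95% counting limit was 2.79-fold higher. Of the 50-base stretches of the CRK6 transcript, 22.9% recur in other family transcripts, most of all CRK8, so its reads may be shared. This was the largest share among the listed members, with family genes that overlap a member left out of the count.

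CRK36 and CRK45, the latter also named ARCK1, act together as negative regulators of abscisic acid and osmotic stress responses. CRK45 (AT4G11890) had 1.04 RPKM in the wild type and 4.91 RPKM in ago1-36, a 4.72-fold higher level (95% counting interval 2.99 to 7.77), and it overlaps the listed gene AT4G11900 by 40 bases. CRK36 (AT4G04490) had 5 and 43 reads, or 0.185 and 1.60 RPKM, a ratio of 8.65 (95% counting interval 3.43 to 28.0). Both partners were therefore higher in ago1-36, CRK36 from very few wild-type reads.

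Among the remaining members, CRK41 (AT4G00970) had 1.28 and 6.26 RPKM and was 4.89-fold higher (95% counting interval 3.38 to 7.25). CRK15 (AT4G23230), with 5 and 39 reads, had a plain ratio of 7.85 (95% counting interval 3.09 to 25.5). After 1 RPKM was added, it lay at the 2-fold mark with a log2 ratio of 1.001. CRK18 (AT4G23260) had 6.62 and 18.0 RPKM and CRK22 (AT4G23300) 6.34 and 15.7 RPKM. Their ratios were 2.72 (95% counting interval 2.31 to 3.20) and 2.48 (95% counting interval 2.09 to 2.95). CRK17 (AT4G23250), annotated as EMB1290 for a defect in embryo development, overlaps CRK16 by 1190 bases on the same strand. It had 6.09 and 10.1 RPKM, and CRK40 (AT4G04570) had 5.30 and 10.3 RPKM. Their ratios of 1.66 and 1.94 stayed under 2-fold. CRK38 had 1 and 16 reads, a ratio of 16.1 (95% counting interval 2.50 to 675), and CRK24 had 0 and 16 reads.

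**Figure D2:**
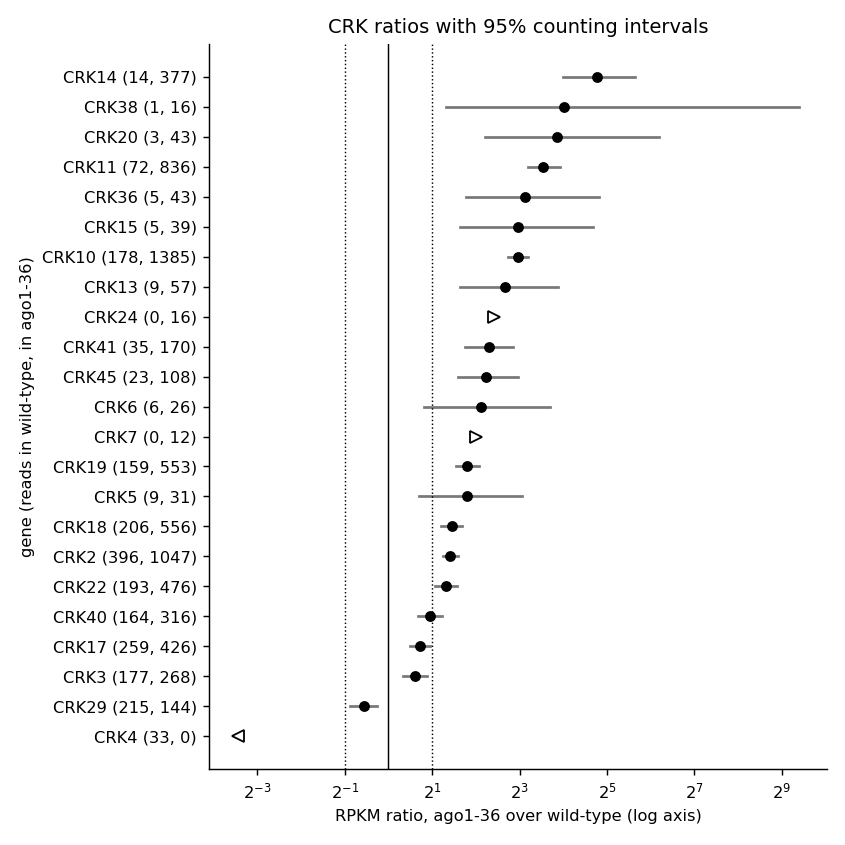
RPKM ratio of ago1-36 over wild-type for each listed CRK gene on a log axis, with bars for 95% exact counting intervals and reads of both libraries beside each name. Open triangles mark the ratio against the floor of 3 reads for genes with a library at 0, and dotted lines mark 2-fold. Intervals narrow with depth, from CRK38 with 1 wild-type read to CRK2 with 396.

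Of the 34 identifiers, 30 lie on chromosome 4, and 19 of these form 1 array from CRK5 to CRK24, from 12117491 to 12191704 (74.2 kb). Of the 19, 14 were listed and all 14 had higher values in ago1-36. Of the 11 kept, 9 were at least 2-fold higher, none was lower, and the median log2 ratio was 1.23. Of the 8 kept members elsewhere, 4 were at least 2-fold higher and 1 lower, with a median of 0.99. Over all kept genes the shares were 19.6% and 8.38%. The filter weighed more on the array, since 5 of its 11 kept members (CRK5, CRK13, CRK14, CRK15 and CRK20) passed only through ago1-36, against 1 of 8 elsewhere (CRK36). At 1 RPKM or more in the wild type, 5 of 6 array members were at least 2-fold higher and none lower, against 3 higher and 1 lower of 7 elsewhere. The difference between the array and the other members was not tested. The array held 48.8% of the summed RPKM of the listed members in the wild type and 68.0% in ago1-36. On log2 of RPKM plus 1, the highest members of the array were CRK10, CRK11 and CRK14, on both strands. CRK5 at the edge and CRK17 in the middle stayed under 2-fold on that scale. Where the highest values lie depends on the scale. With 0.1 RPKM added, CRK24 (3.32) and CRK20 (3.01) in the last part had higher log2 ratios than CRK10 (2.95). By the authors' log2 fold change, CRK24 (3.91) and CRK7 (3.52) lay above CRK11 (3.34).

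The array contains 2 further listed genes. CRK9 (AT4G23170, also named EP1), which has the extracellular cysteine motifs but no kinase motif, lies just before CRK10. It had 1.92 RPKM in the wild type and 15.5 RPKM in ago1-36, an 8.08-fold higher level (95% counting interval 5.44 to 12.4). AT4G23215, annotated as a transcribed pseudogene of the CRK family, lies 631 bases beyond the 3′ end of CRK14 on the same strand. It had 3 and 141 reads, or 0.443 and 21.0 RPKM, a ratio of 47.3 (95% counting interval 15.9 to 232). Outside the array, CRK32 (AT4G11480) is also listed, with 1 and 25 reads, and was looked up after the values of the others were seen.

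**Figure D3:**
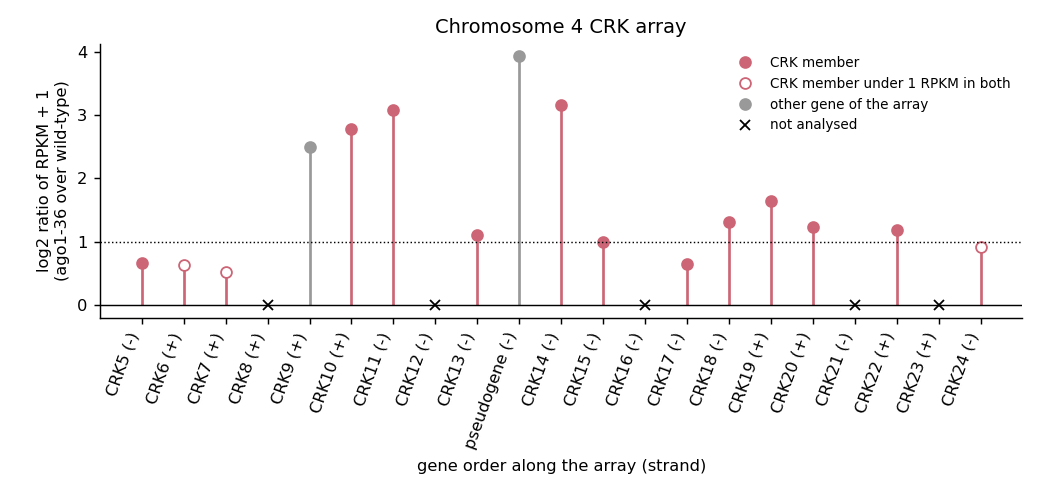
Log2 ratio of RPKM plus 1 (ago1-36 over wild-type) in gene order along the chromosome 4 array, with strands in brackets. Open circles are members under 1 RPKM in both libraries, grey circles are CRK9 and the pseudogene AT4G23215, crosses are the 5 members not analysed here, and the dotted line is 2-fold. All 14 listed members lie above 0, and on this scale the highest of them are CRK10, CRK11 and CRK14.

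The encoded proteins were compared with the domains that define the family, so these motifs describe the members and are no finding about them. In the reference coding sequences, 20 of the 23 listed members hold 2 copies of the DUF26 cysteine motif, in which the first of 3 cysteines is followed by 8 residues, the next by 2 residues and then the last. CRK17 holds 4 copies and is the longest at 1001 residues, CRK24 holds 1, and CRK45 holds none and is the shortest at 354 residues. The kinase motifs HRD and DFG were both found in 21 of the 23. CRK22 lacks the first and CRK45 the second. The median length was 659 residues, and 18 of the 23 genes have 7 exons. The 4 exceptions in motif content all had higher values in ago1-36. The ratios were 1.66 for CRK17, 2.48 for CRK22 and 4.72 for CRK45. With 3 reads taken as the floor, CRK24 was 5.36-fold higher, and its 95% counting limit was 3.88-fold higher.

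Each member's closest relative among the annotated family proteins was 44.6% to 84.9% identical to it. None reached 90%. CRK19 and CRK20 are the closest pair (84.9% over 644 residues), yet CRK19 had 5.54 RPKM in the wild type and CRK20 0.111. CRK17 and CRK18 (76.3%) had near-equal wild-type levels of 6.09 and 6.62 RPKM and ratios of 1.66 and 2.72. Their counting intervals do not overlap, but these cover counting error only, so a difference between the 2 genes was not tested. Some reads of CRK17 may also belong to CRK16, which it overlaps by 1190 bases. Stretches of 50 bases shared with other family transcripts were absent in 9 listed members and under 7% of the transcript in 11. Family genes that overlap a member on the chromosome were left out of this count. CRK29 with CRK28, CRK17 with CRK16 and CRK10 with CRK11 were therefore not compared, and their shared sequence is not included. Beside CRK6, CRK13 and CRK22 share 14.2% and 14.3% of theirs, mostly with each other, so the 57 reads of CRK13 are uncertain next to the 476 of CRK22.

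W-box cores were counted in the 250 bases upstream of each start, on both strands. Of the 23 listed members, 16 (69.6%) hold at least 1 TTGAC and 10 hold 2 or more. Among 27443 protein-coding genes, 44.9% hold at least 1, and among kept genes at least 2-fold higher, under 2-fold or at least 2-fold lower the shares were 55.3%, 45.0% and 41.8%. The longer form, TTGACC or TTGACT, was found in 60.9% of the listed members and 28.4% of all promoters. The as-1 core TGACG, which shares TGAC with the W-box core and can overlap it, was found in 43.5% and 18.6%. CACGTG, the G-box, was found in 1 of the 23 and in 6.49% of all promoters. Neighbouring copies share descent, so the members are not independent draws.

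Within the family, the number of cores did not order the ratios on log2 of RPKM plus 1. CRK11 holds 6 cores, 5 of them within 65 bases of its start, and CRK41 holds 4. CRK14 holds 2 and CRK10 only 1. The 10 members with 2 or more cores had a median log2 ratio of 1.12 (0.64 to 3.17), the 6 with 1 core 0.55 (-1.13 to 2.78) and the 7 with none 1.19 (0.54 to 1.64). The order of these groups depends on the scale, since adding 1 RPKM shrinks the ratios of low genes. By plain ratio, members without a core ran from 1.52 (CRK3) to 6.37 (CRK13). CRK38, with 1 core, had a plain ratio of 16.1, and CRK20, with 2, had 14.4, both from few wild-type reads. CRK4, with no reads in ago1-36, holds 1 core, 231 bases before its start. A match is a description of letters and not a bound site.

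**Figure D4:**
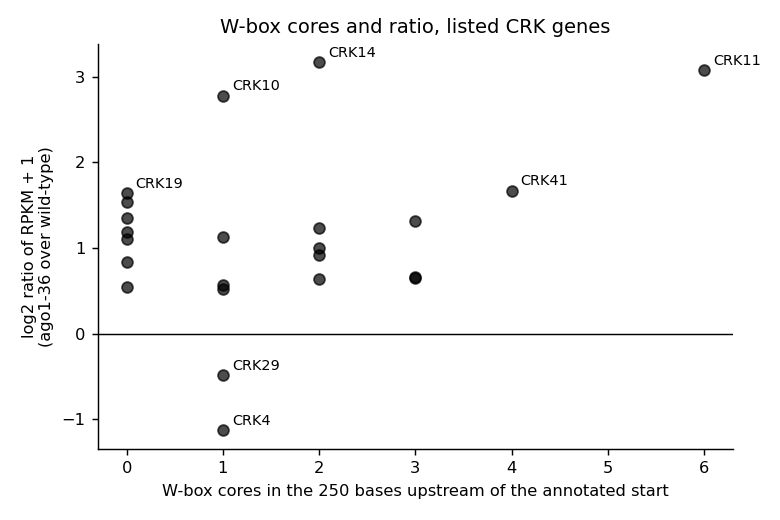
Log2 ratio of RPKM plus 1 (ago1-36 over wild-type) against the number of TTGAC cores in the 250 bases upstream of the annotated start, 1 point for each of the 23 listed CRK genes. Members without a core span 0.54 to 1.64, and CRK11 with 6 cores and CRK10 with 1 core lie close together near 3.

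The comparison of wild-type and ago1-36 seedlings addresses microRNA targets, so the members' transcripts were scanned for ungapped complementarity to 350 annotated mature microRNA sequences. A mismatch scored 1 and a G:U pair 0.5, doubled at positions 2 to 13 of the microRNA, and a site was kept up to a score of 4. Of the 23 listed members, 2 (8.70%) held a site, against 14.8% of 11021 kept protein-coding genes and 13.2% of those at least 2-fold higher. These were CRK41, with a site for miR5021 (score 3.5), and CRK24, with a site for miR172a (score 4). At a score of 3 or less, 0 of the 23 held a site, against 6.88% of kept genes. SPL3, a known miR156 target, was found at a score of 1.5, but sites with a bulge are missed and the known miR398 targets CSD1 and CSD2 returned none.

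Genes of the pathways in which CRKs act were taken from a list, also drawn up with earlier results known. Of 16 immune receptor and oxidative burst genes, 15 were listed and kept. At least 2-fold higher were 10, none was lower, and the median log2 ratio was 1.55. The shares over all kept genes were 19.6% higher and 8.38% lower. RBOHD and RBOHF, the NADPH oxidases of the burst, had 17.5 and 53.1 RPKM and 18.0 and 45.8 RPKM. BIK1, a cytoplasmic kinase that activates RBOHD, had 3.01 and 14.8 RPKM. FLS2, the flagellin receptor, had 1.57 and 9.69 RPKM, and its coreceptor BAK1 had 15.8 and 31.6 RPKM, a plain ratio of 2.004 and a log2 ratio of 0.96 with 1 RPKM added. SOBIR1, a coreceptor of receptor-like proteins, had 23.5 and 265 RPKM. PRX34, an apoplastic peroxidase that makes oxidants, had 26.5 and 196 RPKM, while its close relative PRX33 had 5.79 and 4.53 RPKM, the only lower value of the 15.

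Relatives that carry the DUF26 domain without a kinase were mixed. Of 54 annotated, 9 were listed and kept, with 4 at least 2-fold higher, 1 lower and a median log2 ratio of 0.63. Among all kept genes, 19.6% were higher and 8.38% lower. The plasmodesmata-located proteins, which control traffic through cell-wall channels, had a higher value in ago1-36 for only 1 of 5. This was PDLP5, at 3.05 and 5.25 RPKM. PDLP6 was 2.65-fold lower (95% counting interval 2.12 to 3.33) at 11.9 and 4.50 RPKM, and PDLP7 had 3.31 and 1.18 RPKM. With 0.1 or 0.5 RPKM added, or by the authors' deposited log2 fold changes, 2 of the 9 relatives were lower. The 4 relatives past 2-fold higher were CRK9 and 3 genes without a given symbol. Of these, AT5G48540 had 16.8 and 56.8 RPKM, AT3G22060 had 18.2 and 42.3 RPKM and AT4G11521 had 1.02 and 3.96 RPKM.

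Other receptor kinase families, picked by their annotated names, are set beside the CRKs as a description. L-type lectin kinases had 12 of 17 kept genes at least 2-fold higher and 0 lower (70.6% higher, median log2 ratio 1.34). S-locus or G-type lectin kinases had 8 of 14 higher and 2 lower (57.1% and 14.3%, median 1.06). Wall-associated kinases had 6 of 12 higher and 1 lower (median 1.17), and malectin or CrRLK1L kinases had 2 of 5 higher and 0 lower (median 0.69). Leucine-rich repeat kinases, with 80 kept genes, had 18 higher (22.5%) and 4 lower, with a median of -0.18. All kept genes gave 19.6% higher and 8.38% lower. The lower counts depend on the measure. In the authors' deposited table, read by its log2 fold change, leucine-rich repeat kinases had 19 higher and 17 lower (median -0.40), wall-associated kinases 7 higher and 3 lower, and malectin or CrRLK1L kinases 1 higher.

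The filter fixed the direction of some of these genes too. Genes that passed only through ago1-36 were 5 of the 17 L-type lectin, 4 of the 14 S-locus or G-type lectin, 3 of the 12 wall-associated and 6 of the 80 leucine-rich repeat kinases, beside 6 of the 19 CRKs. At 1 RPKM or more in the wild type, the counts at least 2-fold higher were 8 of 13 CRKs, 9 of 12 L-type lectin, 5 of 10 S-locus or G-type lectin, 4 of 9 wall-associated and 13 of 74 leucine-rich repeat kinases. On that footing 15.6% of all genes were at least 2-fold higher, and the wall-associated median was 0.47. With 1 library per genotype, no difference between families was tested.

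The kept genes with the highest log2 ratio in each family were LECRKA4.1 (3.20 RPKM in the wild type and 66.3 RPKM in ago1-36), AT1G61610 (0.405 and 14.0 RPKM), WAKL10 (0.373 and 10.7 RPKM), AT5G39020 (1.08 and 5.51 RPKM) and AT1G51820 (0.523 and 50.8 RPKM). Those with the lowest log2 ratio, in the same order of families, were LECRKA4.3 (14.9 and 12.5 RPKM), AT1G11410 (23.5 and 9.86 RPKM), AT1G16260 (12.3 and 5.24 RPKM), HERK2 (9.61 and 7.73 RPKM) and AT3G57830 (11.2 and 3.12 RPKM). AT1G11410, AT1G16260 and AT3G57830 were 2.39-fold, 2.36-fold and 3.58-fold lower.

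**Figure D5:**
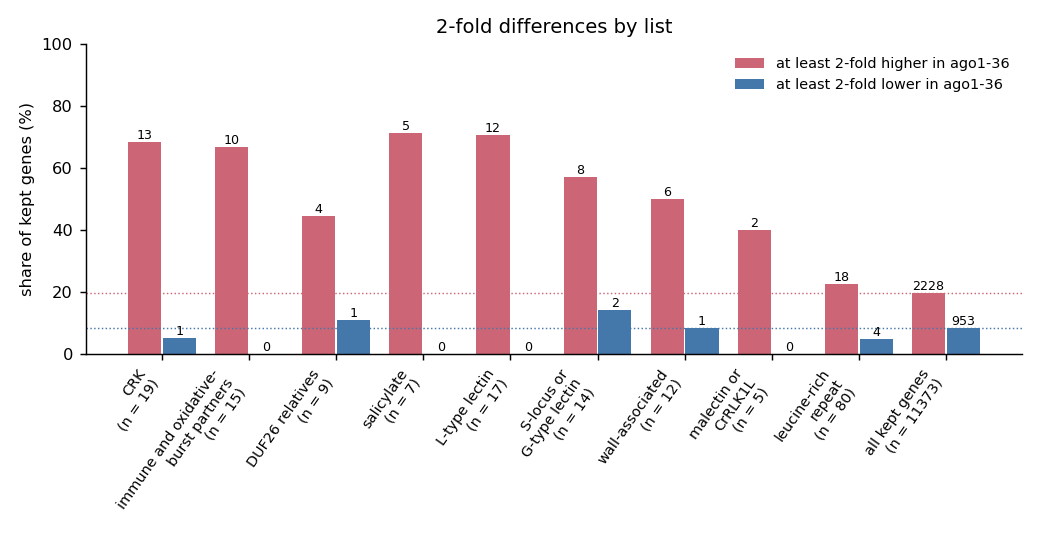
Share of kept genes at least 2-fold higher or lower in ago1-36, on log2 of RPKM plus 1, for the CRKs, the related lists, other receptor kinase families and all kept genes, with counts above the bars. Dotted lines mark the shares of all kept genes, 19.6% and 8.38%. The CRK and L-type lectin bars stand at 68.4% and 70.6% higher, and the leucine-rich repeat bar at 22.5%, with genes included that passed the filter only through ago1-36.

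Salicylate is known to raise the transcripts of many CRKs. Of 8 salicylate pathway genes, 7 were listed and kept, 5 were at least 2-fold higher, none was lower and the median log2 ratio was 1.88. All kept genes gave 19.6% higher and 8.38% lower. CBP60g and SARD1 passed the filter only through ago1-36, and of the other 5 genes 3 were past 2-fold higher (median 1.04). Of all genes at 1 RPKM or more in the wild type, 15.6% were. CBP60g and SARD1, transcription factors that switch on salicylate synthesis, had 0.808 and 18.1 RPKM and 0.173 and 10.4 RPKM. PAD4, an immune regulator, had 9.77 and 38.7 RPKM, while NPR1, a salicylate receptor, had 24.4 and 33.5 RPKM. The libraries also differed in tissue markers. AGO1 had 48.6 RPKM in the wild type and 5.59 RPKM in ago1-36, lower in the library labelled as its mutant. The 4 leaf mesophyll markers all had lower values in ago1-36, 2 of them past 2-fold, with summed levels of 6687 and 3664 RPKM. The 3 listed root hair markers were all at least 2-fold lower, with summed levels of 28.1 and 3.97 RPKM. The seed storage genes CRA1 and CRC were higher, with summed levels of 0.367 and 52.3 RPKM, and no listed marker was at 0. Their part in the CRK values was not tested.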

How the data were processed

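Per the labels' protocols, seedlings of 12 days gave TRIzol-extracted total RNA and SMART libraries, 1 for each genotype. The submitters' processing notes name TopHat2 2.0.11 and TAIR10. Not given in the sources used here are the counter, its annotation, its strand use and what was done with multiply matching reads. SMART amplification can favour some transcripts, and reads of similar or overlapping genes cannot be told apart.

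The deposited table gives, per the file headers, RPKM values as the authors computed them, with the authors' GFOLD score (a cautious log2 change) and their log2 fold change. Of 11957 lines, 291 repeats were dropped, which left 11666 genes. No listed gene has a GFOLD score of 0 in the deposited table, so shares describe listed genes only. Whole reads were recovered from the RPKM and the authors' log2 fold change, which equals the log2 ratio of reads plus 1 less 0.176622. Of genes with 1 to 100 reads, 99.9% came out whole within 0.1, against 56.8% from 100 to 300 and 20.5% from 300 to 1000, so larger read numbers are rounded estimates. The libraries hold about 13700000 and 13600000 reads, an estimate from annotated exon lengths. Intervals are exact Clopper-Pearson at 95%. They and the floor of 3 reads cover counting error only, since amplified reads carry no molecular identifiers and are not independent.

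Log2 ratios were taken of ago1-36 over wild-type after 1 RPKM was added to both, a scale on which differences of low genes are understated. A gene that reached 1 RPKM in either library was kept, and called at 2-fold. Ratios of single genes are plain RPKM ratios. With 1 library per genotype there is no test. Members, lists and motifs were chosen with earlier results of these data known. Counts of lists and of the array at 1 RPKM or more in the wild type were added after values were seen. All members could be named, with AGO1, every gene of the partner, relative and salicylate lists, genes between array members, and the highest and lowest of each other kinase family. CRK32 and the G-box count were added after values were seen.

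Coordinates, transcripts, promoters and microRNAs came from the RefSeq annotation of TAIR10.1, which matched 11556 of the listed identifiers. The deposited table carries no coordinates. Proteins were translated from the longest coding sequence and aligned globally with BLOSUM62 in Biopython 1.88, with the best match taken over at least 50% of the residues. The calculations used Python 3.11.15, pandas 2.3.3 and scipy 1.17.1. The read recovery and the calls were tested on simulated data. Alternatives were 0.1 or 0.5 RPKM added, filters of 0 and 5 RPKM, rescalings by the median of ratios or to equal sums, the authors' log2 fold change, and leaving out overlapping or near-identical members.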

Additional observations from a re-analysis of the deposited data

How the results depend on the processing

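Counts of CRK members at least 2-fold higher stayed between 13 and 14 under both other pseudocounts, no filter, both rescalings and the authors' deposited log2 fold changes, and 1 member was lower in each. A filter of 5 RPKM left 12 members, 8 higher and 0 lower, against 19.1% and 7.93% of all genes it kept. Requiring 1 RPKM in the wild type, chosen after seeing the data, also gave 8 higher, of 13, against 15.6% of all such genes. Plain ratios over all 23 listed members, likewise chosen after seeing the data, gave 18 higher and 1 lower. On that measure 24.4% of all listed genes were at least 2-fold higher. The median log2 ratio was 1.79 and 1.46 with pseudocounts of 0.1 and 0.5 and 1.61 by the authors' deposited table. It was 1.10 to 1.33 under the filters and rescalings, 1.12 without members overlapping a listed gene and 1.21 with CRK9 added (CRK32 did not pass the filter). No member was 90% identical to another. Across all kept genes, the authors' log2 fold changes gave 2249 higher and 1791 lower, a share of 55.7% higher against 70.04% on the RPKM scale. Their median over all kept genes is -0.23, and the CRK median lay 1.84 above it, against 1.23 on the RPKM scale. None of 115 single-member values turned in sign, but a pseudocount cannot change a sign. The rescalings also moved values little, with CRK29 going from -0.49 to -0.44 by the median of ratios. No paired analysis was possible because each genotype has 1 library. Depth limits 9 members with fewer than 10 wild-type reads, whose ratios have wide intervals.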
